A study of Homo sapiens with 4 samples.

Results

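The splicing factors described here were the SR proteins (SRSF), the hnRNP proteins except HNRNPD, the Sm and other snRNP proteins (SNRP), the SF3A and SF3B subunits, U2AF and the PRPF proteins, chosen by gene symbol. They made up 80 of the 15113 gene symbols and 368 of the 43596 transcripts of the deposited table. A protein_coding transcript was listed for 65 of the 80 genes, out of 12120 genes in all. MDA-MB-231, a human cell line from a breast cancer without hormone receptors or HER2, received DMSO as solvent control or 10 µM KH-3 for 24 h. KH-3 is an inhibitor of the RNA-binding protein HuR, and 2 mRNA libraries were made per condition. The table gives 1 expression value per transcript that was used here, the authors' mean normalized read count over their libraries. Which libraries enter that mean is not stated and there is no value per library, so the levels belong to no single condition. The difference between KH-3 and DMSO is not analysed here. Sequencing depth and the spread between replicates are unknown, so all values are given without error and all comparisons are descriptions without a test.

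Pre-mRNA is cut and joined by the spliceosome, which is built from small nuclear RNAs with Sm and specific proteins. U2AF and the SF3A and SF3B complexes recognize the 3′ end of the intron and the branch point, and PRPF8 lies at the catalytic centre. SR proteins mostly favor the use of an exon and hnRNP proteins often oppose it. Many of these genes are known to control their own amount through their own splicing: inclusion of a so-called poison exon, or retention of an intron, gives an RNA with an early stop codon. Such an RNA is degraded by nonsense-mediated decay (NMD) or stays in the nucleus. The annotation marks these forms as separate transcripts, of type nonsense_mediated_decay and retained_intron, and their levels were compared with those of the protein_coding transcripts of the same gene.

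Of the 368 transcripts, 173 were protein_coding, 100 retained_intron, 39 nonsense_mediated_decay and 46 processed_transcript, a type with no stated reading frame, and the remainder were pseudogenes. Levels are given per kilobase, as the mean normalized read count divided by transcript length and summed over the transcripts of a type. A share is the part of a type in the summed per-kilobase level of the protein_coding, retained_intron and nonsense_mediated_decay transcripts of a gene. The authors divided reads that fit several transcripts of a gene by a statistical model, and the error of that division is not known.

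The poison exons that some of the listed decay transcripts carry are shown first, because these exons are absent from the canonical coding transcript. Of 38 nonsense_mediated_decay transcripts with an annotated stop codon in GENCODE release 44, 15 transcripts of 12 genes had their stop in an exon absent from the canonical coding transcript. In 12 transcripts the stop lay in an exon shared with it, in 10 in an exon that overlapped a canonical exon but had other ends, and in 1 in another exon. The decay transcript of SNRPD3 has no stop codon in that release. The sequences below run on hg38 from 20 bases of the preceding intron to the early stop codon, which is in capitals. They come from 5 SR protein genes, a core snRNP protein gene, an SF3B gene and a U2AF gene, and in each the exon is absent from the canonical transcript.
SRSF3 (SRSF3-002, exon 4 at chr6:36599821-36600276, plus strand): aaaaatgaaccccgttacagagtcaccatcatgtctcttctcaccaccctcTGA
SRSF6 (SRSF6-002, exon 3 at chr20:43459153-43459420, plus strand): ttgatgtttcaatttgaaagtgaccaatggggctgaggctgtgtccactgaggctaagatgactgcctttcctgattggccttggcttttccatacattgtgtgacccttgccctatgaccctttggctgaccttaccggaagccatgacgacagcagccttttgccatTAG
SRSF7 (SRSF7-002, exon 4 at chr2:38748898-38749346, minus strand): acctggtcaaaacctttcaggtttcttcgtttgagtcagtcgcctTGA
SRSF4 (SRSF4-007, exon 4 at chr1:29165890-29166064, minus strand): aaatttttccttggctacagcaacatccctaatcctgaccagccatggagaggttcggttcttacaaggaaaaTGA
SRSF9 (SRSF9-006, exon 3 at chr12:120464733-120464822, minus strand): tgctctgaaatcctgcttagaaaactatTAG
SNRPB (SNRPB-003, exon 3 at chr20:2467192-2467315, minus strand): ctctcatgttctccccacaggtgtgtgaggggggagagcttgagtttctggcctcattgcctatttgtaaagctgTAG
SF3B3 (SF3B3-007, exon 4 at chr16:70550650-70550678, plus strand): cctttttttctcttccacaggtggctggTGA
U2AF2 (U2AF2-007, exon 6 at chr19:55661771-55661834, plus strand): gtttccatttctctttaaagTGA
Each intron ended in ag, the usual last bases of an intron. The stop codon ended at base 34 of the exon in SRSF3, 152 in SRSF6, 28 in SRSF7 and 56 in SRSF4. In SRSF9 it ended at base 11, in SNRPB at 58, in SF3B3 at 11, and in U2AF2 the exon opened with it. From the end of the stop codon to the last exon junction, the 38 transcripts had 75 to 2030 bases with a median of 450. A long distance of this kind is what the annotation uses to assign the type, so it is no finding. Whether each stop lies before that of the canonical transcript was not examined, and in 12 it lies in a shared exon.

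The SR proteins had a nonsense_mediated_decay transcript listed for 10 of 11 genes, the exception being SRSF5. In SRSF11, SRSF2 and SRSF4 the only such transcript had 8.34, 9.83 and 13.9 mean normalized reads. These genes would therefore have none listed at a minimum of 20 reads. Over all genes with a protein_coding transcript, 18.8% had a nonsense_mediated_decay transcript. All splicing factors together had one for 26 of 65 genes, or 40.0%. With transcripts of at least 50 mean normalized reads it was 15 of 63 genes, or 23.8%, against 10.0% of 9721 other genes. The share of the gene's level in these transcripts ranged over the SRSF genes from 0 in SRSF5 to 63.5% in SRSF6, with a median of 4.72%. Their makeup thus differed widely within 1 family.

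SRSF6 stood highest. Its coding transcript had a mean normalized read count of 2470 over 4325 bases, which is 571 per kb, and its decay transcript with the exon shown above had 1671 over 1680 bases, which is 995 per kb. The decay form was therefore above the coding form per kilobase but below it in reads, with a share of 40.4% when reads were not divided by length. Both transcripts share all 6 coding-form exons at least in part, and the coding form has a much longer last exon. SRSF6 lies at chr20:43457893-43466046 on the plus strand.

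SRSF8 and SRSF7 followed. SRSF8, a close relative of SRSF2, had a coding level of 162 per kb and a decay level of 154 per kb, a share of 48.7%. Its decay transcript of 560 bases held only 86.1 reads against 652 for the coding transcript of 4028 bases, and the share without division by length was 11.7%. SRSF7 listed 4 decay transcripts with 301 per kb in all against 393 per kb for 4 coding transcripts, a share of 40.1% that was 40.6% without division by length. Its main decay form, at 241 per kb, was not the one with the separate poison exon shown above, at 28.3 per kb. It carried an exon of 1127 bases, the stretch around the poison exon kept whole, with the stop codon ending at base 190. In this gene the form that keeps the whole region was thus higher than the one with the spliced poison exon.

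SRSF1 had a decay share of 20.4%, with 423 per kb over 3 transcripts against a coding level of 1652 per kb, and 6.53% without division by length. Its leading decay form, at 393 per kb, had its stop in exon 3 of 203 bases, which overlaps a canonical exon. SRSF3, the smallest SR protein, had a decay share of 16.6% and a retained_intron share of 37.6%, which left 1396 per kb for its coding transcripts. The poison exon form of SRSF3 made up 484 of its 506 per kb of decay transcripts, and the decay share of SRSF3 was 10.6% without division by length. The other form, at 21.8 per kb, had its stop in an exon of 98 bases.

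The remaining SRSF genes had small decay shares: SRSF10 4.72%, SRSF11 4.32%, SRSF9 3.45%, SRSF4 1.52% and SRSF2 0.49%. Without division by length, SRSF10 had 2.34% and SRSF11 1.10%. SRSF4 and SRSF2, at 631 and 1163 per kb of coding level, thus carried decay forms that made up little of the measured RNA, 9.97 and 7.23 per kb. SRSF11 differed in another way, since its processed_transcript level of 518 per kb was above its coding level of 232 per kb. Of that, 145 per kb came from a transcript that GENCODE release 44 types as retained_intron. SRSF9 was the SR gene with the highest coding level, 1871 per kb.

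**Figure D1:**
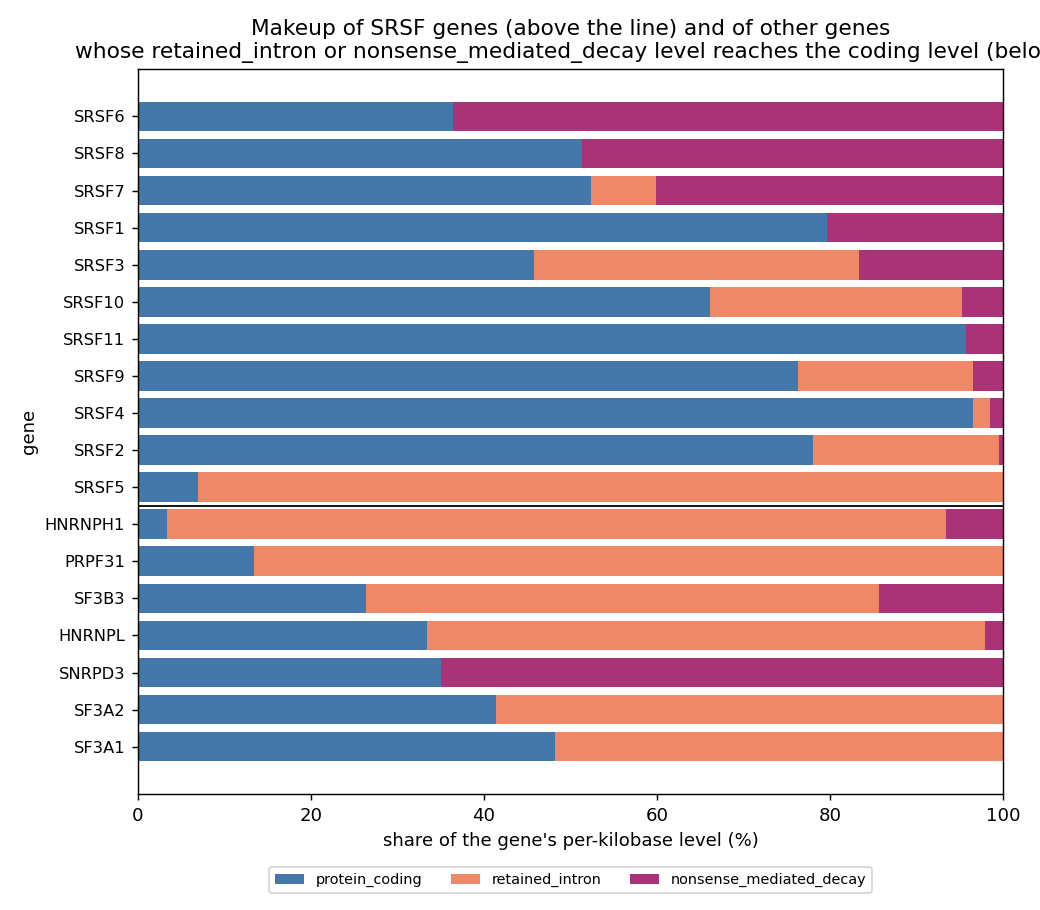
Share of protein_coding, retained_intron and nonsense_mediated_decay transcripts in the per-kilobase level of each gene (horizontal axis, percent), for the 11 SRSF genes above the line and 7 other genes whose retained_intron or nonsense_mediated_decay level reaches the coding level below it. SRSF6 has the largest decay share of the SRSF genes, 63.5%, and SRSF5 the largest retained_intron share, 93.0%; each bar is the authors' mean over their libraries and has no error.

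SRSF5 was the opposite case, with no decay transcript listed and a retained_intron share of 93.0%. Its 3 retained_intron transcripts had 51.4, 132 and 37.6 per kb, and its coding transcript had 16.6 per kb, the lowest coding level of all 65 genes. The transcript at 132 per kb kept intron 5 of the canonical transcript, of 1215 bases, and that at 51.4 per kb kept introns 4 and 5. The canonical coding transcript of SRSF5 had no value in the table, although SRSF5-004, another coding form, was listed. The same holds for HNRNPH1, HNRNPC, HNRNPF and SRSF10. The part of this in the makeup of SRSF5 and HNRNPH1 was not tested. Of the member genes with a canonical transcript in GENCODE release 44, 59 of 64 had it listed, against 9926 of 11560 over all genes.

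**Figure D2:**
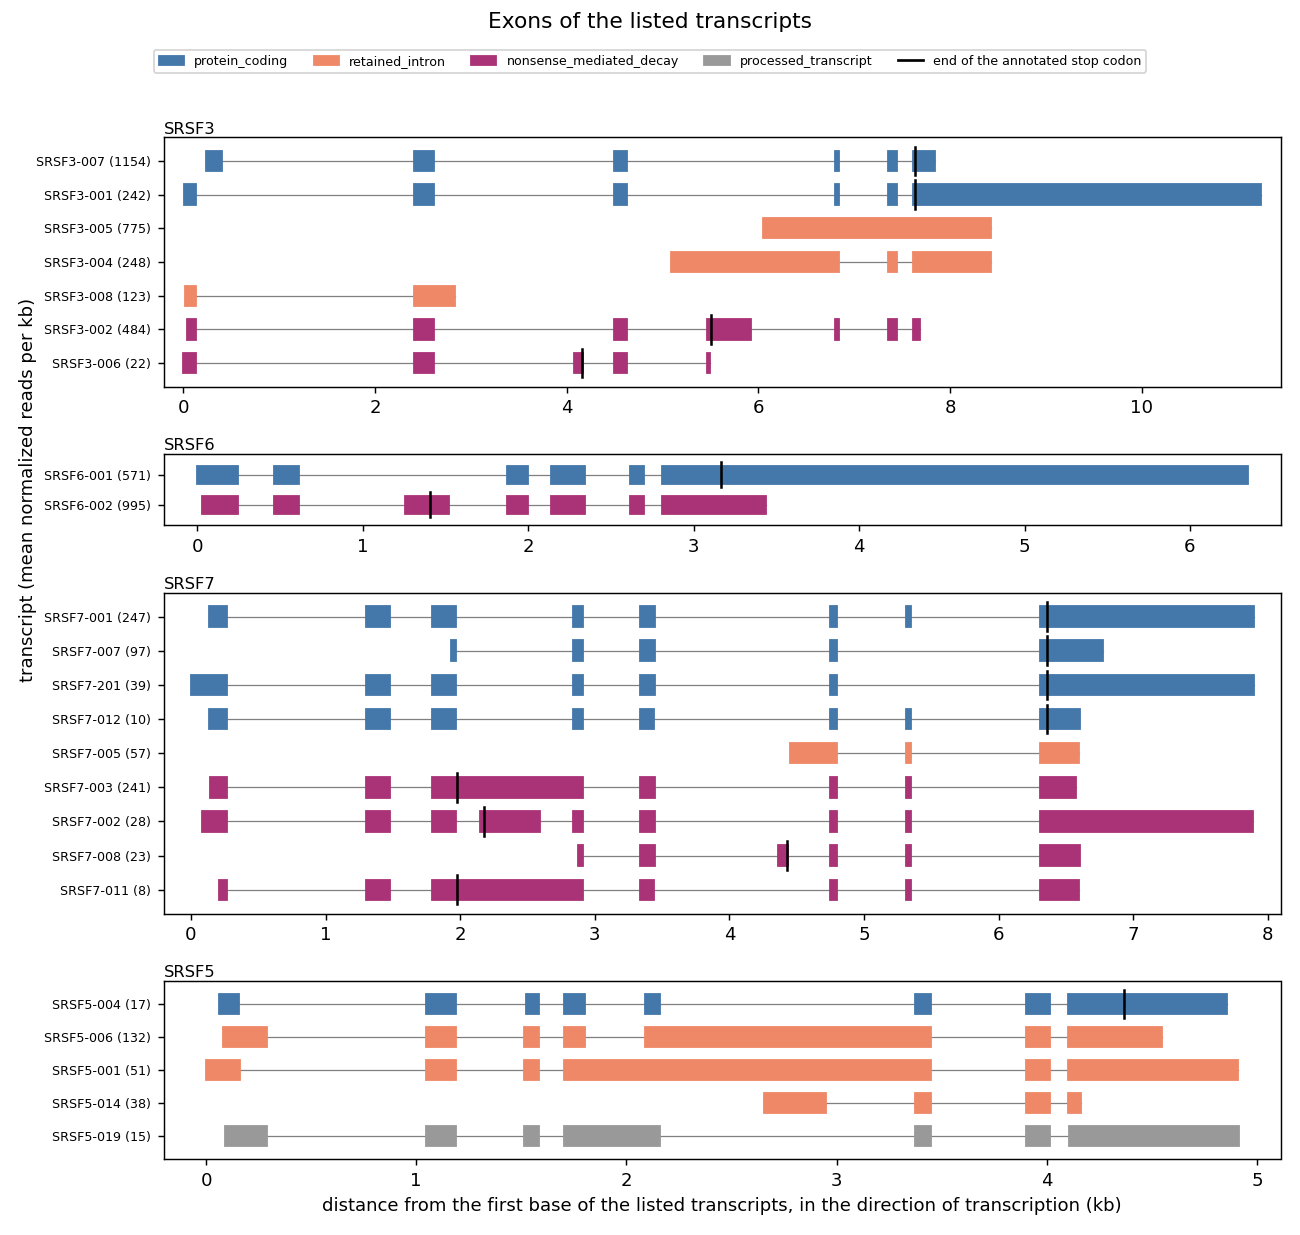
Exons (blocks) and introns (lines) of the listed transcripts of SRSF3, SRSF6, SRSF7 and SRSF5, by distance in kb from the first base of the listed transcripts. Color gives the transcript type, the black mark the end of the annotated stop codon, and the number after each name the mean normalized reads per kb; the decay transcripts reach a stop codon before the coding transcripts do, and SRSF5-006 and SRSF5-001 keep an intron whole.

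In the other families, decay transcripts were listed for 8 of 20 hnRNP genes (40%), 3 of 11 SNRP genes (27.3%) and 2 of 9 SF3A and SF3B genes (22.2%). They were listed for 1 of 2 U2AF genes and 2 of 12 PRPF genes (16.7%). Over all genes with a protein_coding transcript it was 18.8%, so the SNRP, SF3 and PRPF values lay nearer to that share than the hnRNP value did. SNRPD3, 1 of the Sm ring proteins, was the leading gene with a decay share of 65.0%. Its decay transcript had 958 reads over 715 bases, or 1339 per kb, and its coding transcripts 506 and 216 per kb, while without division by length the share was 48.5%. PRPF4B, a kinase that acts on splicing proteins, had 28.5%, nearly all of it in a transcript of 6775 bases at 140 per kb. Its share was higher without division by length, at 37.6%. SF3B3 had 14.3%, in the exon shown above, at 652 per kb, and 6.28% without division by length. U2AF2 had 7.44%, or 3.91% without that division, and HNRNPU had 5.52%. In U2AF2 the transcript whose exon opens with the stop codon made up 126 of 164 per kb.

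HNRNPH1 was the third gene, beside SNRPD3 and SRSF6, with a decay level at least as high as its coding level, at 161 against 82.3 per kb. These 3 of 65 genes, or 4.62%, compare with 3.75% of all genes with a protein_coding transcript. Within the 25% of genes with the highest coding level, they were 4.08% of splicing factors and 1.01% of other genes, the former being 2 genes of 49. Among genes with a decay transcript listed, the median decay share was 4.52% in splicing factors and 17.2% in other genes. Within the 25% of genes with the highest coding level the medians were 3.45% and 7.63%. Splicing factors thus had such transcripts listed more often, with a lower median share where they were listed, and the gap in that median was smaller among genes of high coding level.

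A retained_intron transcript was listed for 37 of 65 splicing factor genes, or 56.9%, against 31.7% of all genes with a protein_coding transcript. By family these were 7 of 11 SRSF genes, 13 of 20 hnRNP genes, 4 of 11 SNRP genes, 6 of 9 SF3A and SF3B genes, 2 of 2 U2AF genes and 5 of 12 PRPF genes. In 8 genes, or 12.3%, the retained_intron level was at least as high as the coding level, against 6.14% of all genes, and within the 25% of genes with the highest coding level it was 6.12% of splicing factors and 2.25% of other genes. Among them were HNRNPH1, HNRNPL, PRPF31, SF3A1, SF3A2, SF3B3 and SRSF5. Because the table has a floor on the mean count, a gene with a high level has more chance of a listed minor transcript, and the splicing factors had a median coding level of 631 per kb against 116 in other genes. Within the 25% of genes with the highest coding level, a retained_intron transcript was listed for 55.1% of 49 splicing factors and 40.0% of 2981 other genes. A nonsense_mediated_decay transcript was listed for 42.9% and 20.1% of them.

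**Figure D3:**
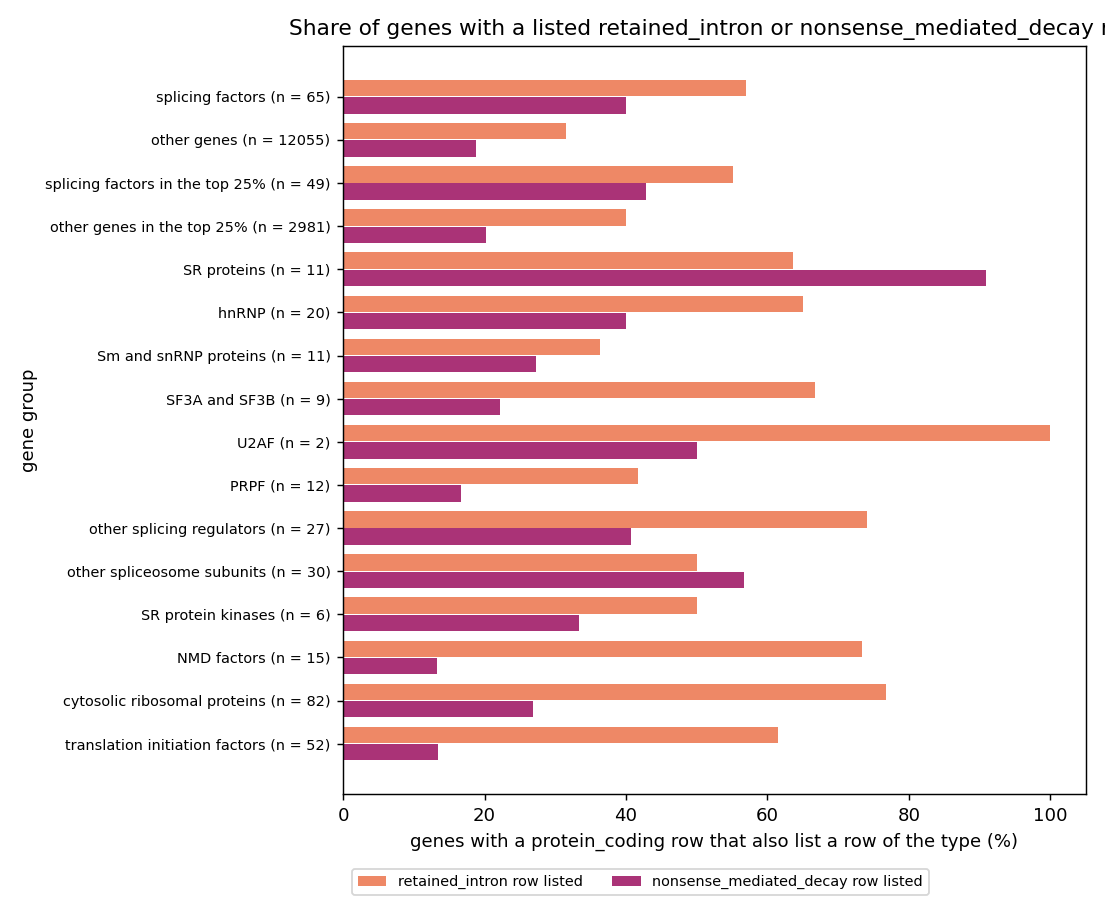
Percent of genes with a protein_coding transcript that also list a retained_intron or a nonsense_mediated_decay transcript (horizontal axis), by gene group, with the number of genes after each name. SR proteins reach 90.9% for nonsense_mediated_decay, while the splicing factors as a whole reach 40.0% and other genes 18.7%. No minimum count was applied, and the only decay transcripts of SRSF11, SRSF2 and SRSF4 had under 20 reads.

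The introns themselves are shown for genes with a high retained_intron level, since they are short enough to be read whole. Each is an intron of the canonical transcript that lies inside 1 exon of a listed retained_intron transcript, 120 bases or shorter, with its first and last bases in capitals.
PRPF31 (intron 10, chr19:54128201-54128304, plus strand): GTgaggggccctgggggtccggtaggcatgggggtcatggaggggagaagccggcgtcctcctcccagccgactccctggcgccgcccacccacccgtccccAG
PRPF31 (intron 12, chr19:54129186-54129271, plus strand): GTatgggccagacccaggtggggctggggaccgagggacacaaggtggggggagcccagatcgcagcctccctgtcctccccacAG
HNRNPL (intron 7, chr19:38840377-38840487, minus strand): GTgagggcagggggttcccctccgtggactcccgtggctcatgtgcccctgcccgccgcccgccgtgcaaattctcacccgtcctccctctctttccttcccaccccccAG
SF3A2 (intron 6, chr19:2246803-2246881, plus strand): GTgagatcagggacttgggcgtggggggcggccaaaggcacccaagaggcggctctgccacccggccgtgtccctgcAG
SF3A1 (intron 10, chr22:30339035-30339129, minus strand): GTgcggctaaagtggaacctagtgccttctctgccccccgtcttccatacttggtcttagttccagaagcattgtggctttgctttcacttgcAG
HNRNPH1 (intron 7, chr5:179617933-179617988, minus strand): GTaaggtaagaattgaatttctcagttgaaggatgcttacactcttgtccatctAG
HNRNPH1 (intron 10, chr5:179616959-179617050, minus strand): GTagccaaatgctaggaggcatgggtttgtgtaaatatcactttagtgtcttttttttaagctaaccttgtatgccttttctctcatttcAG
All of them open with GT and close with AG, the usual ends. The G and C content of these sequences differed between genes. The PRPF31 introns had 75% and 69.8%, SF3A2 had 70.9% and HNRNPL had 69.4%, while the pair of HNRNPH1 had 37.5% and 37.0%.

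PRPF31, a protein of the U4/U6.U5 particle whose loss of one copy is a known cause of retinal degeneration, had 3 coding transcripts with 37.3, 13.0 and 4.45 per kb. A single retained_intron transcript, which holds both introns shown, had 354 per kb and 650 reads, a share of 86.6%. In PRPF31 the retained form was the larger one under all the alternatives tried.

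HNRNPH1, which binds runs of G and acts on many alternative exons, had 11 retained_intron transcripts with 2187 per kb in all and a share of 90.0%. The highest was at 668 per kb. A transcript of 5564 bases, which kept 6 whole introns, held 1872 reads. Its coding transcripts had 6.62 and 75.7 per kb, the latter from a transcript that is not in GENCODE release 44. HNRNPL, which binds CA repeats, had 208 per kb over 5 retained_intron transcripts against 108 per kb for coding, a share of 64.5%. Its leading retained_intron transcript, at 127 per kb, is typed as protein_coding in GENCODE release 44, and with the types of that release the share was 25.4%. Its paralog HNRNPLL had 45.1% and HNRNPUL2 had 39.4%, which fell to 12.7% and 5.29% when reads were not divided by length.

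The SF3 subunits had many such transcripts. SF3B3 had 7 of them with 2695 per kb in all, against 1201 per kb for its 3 coding transcripts, a share of 59.3%. None of the 7 covered a whole canonical intron, and they covered 70 to 603 intron bases. SF3A2 had 338 against 238 per kb, a share of 58.6%, and SF3A1 had 498 against 464 per kb, a share of 51.8%. These 3 genes had more coding than retained_intron reads when reads were not divided by length, with shares of 37.3% in SF3B3, 38.7% in SF3A2 and 13.3% in SF3A1. Their retained_intron transcripts are short models next to long coding ones. SRSF3 and U2AF1L5 entered the list of genes with at least as much retained_intron as coding signal in that setting.

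PRPF8 had 31.9% with 831 per kb, of which 589 per kb came from a transcript of 648 bases that holds intron 27, and it kept a coding level of 1776 per kb. Its share was 5.51% without division by length, since the coding transcripts are much longer. Among SR genes, SRSF10 had 29.2%, SRSF2 21.5%, SRSF9 20.2%, SRSF7 7.54% and SRSF4 1.98%, while SRSF1, SRSF6, SRSF8 and SRSF11 had no retained_intron transcript listed. With the types of GENCODE release 44, SRSF11 had a retained_intron share of 37.4%. Without division by length, SRSF10 had 41.1%, SRSF2 12.4%, SRSF9 21.8%, SRSF7 2.75% and SRSF4 6.46%. SRSF10 had its share from a single transcript of 3957 bases with 1378 reads.

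**Figure D4:**
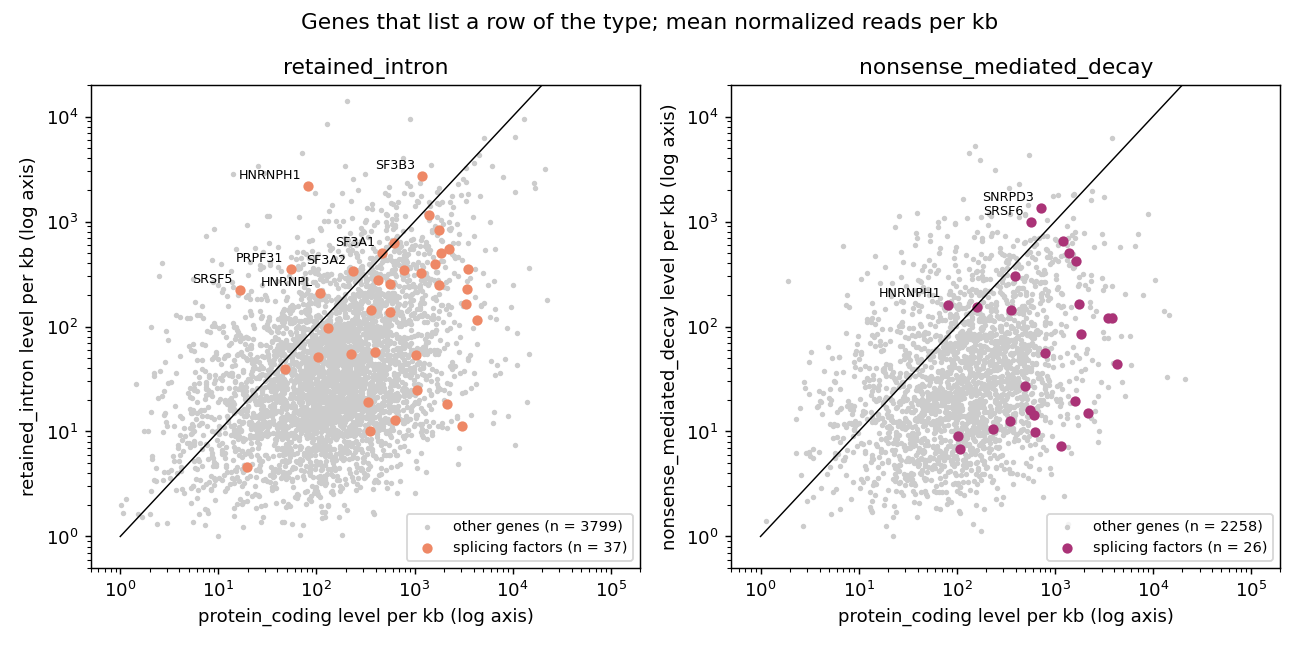
Level of retained_intron (left) and nonsense_mediated_decay (right) transcripts against the protein_coding level of the same gene, in mean normalized reads per kb on log axes, for genes that list the type. Points above the line have at least as much of the type as of protein_coding; named are 7 and 3 splicing factor genes there, and grey points are the 3799 and 2258 other genes.

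Whether a retained_intron transcript stands for a whole kept intron depends on its model. Of 97 such transcripts of the splicing factors with a structure in GENCODE release 44 and a canonical transcript to compare, 40 covered at least 1 whole canonical intron, 56 covered part of an intron only and 1 covered no base of one. Those with a whole intron held 38% of the per-kilobase level of the 97. Reads in a partial model can also come from another first or last exon that lies in the intron, and these cannot be told apart here.

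The 58 introns kept whole in 24 genes had a median length of 314 bases, with quartiles of 160 and 640, and 37.4% G and C. The other 400 introns of the genes with a retained_intron transcript had a median of 676 bases, with quartiles of 219 and 1748, and 44.3% G and C. Within genes, the kept introns were shorter by median in 14 of 24 genes and richer in G and C in 9 of 24. HNRNPU and HNRNPH1 gave 8 kept introns each. These lengths and contents come from the annotation and the genome, not from the reads.

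The coding levels set the scale for these shares. HNRNPA1 had the highest coding level of the splicing factors, 4326 per kb, at the 99.2 percentile of all genes with a protein_coding transcript. It was followed in its family by HNRNPA2B1 with 3495, HNRNPK with 3463 and HNRNPA3 with 3338 per kb, all of them abundant nuclear RNA-binding proteins. Their retained_intron shares were 2.55%, 8.98%, 6.22% and 4.63%. Without division by length they were 1.03%, 23.8%, 2.30% and 1.39%, so that of HNRNPA2B1, which has a retained_intron transcript of 6284 bases, was higher and the other values lower. HNRNPA1L2, HNRNPLL and HNRNPH1 were at the low end, with 22.7, 48.2 and 82.3 per kb. The canonical transcript of HNRNPH1 was not listed, so its sum need not be the coding level of the gene.

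Among the snRNP proteins, SNRPB, an Sm ring protein, had 3789 per kb, followed by SNRPC with 2335, SNRPD1 with 1881 and SNRPF with 1035 per kb. The coding levels of the Sm proteins, which assemble in 1 ring, reached down to 130 per kb in SNRPG and 177 per kb in SNRPD2. These sums cover the listed coding transcripts only and need not be the level of the gene. SNRPG had 97.4 per kb more in a retained_intron transcript, while SNRPD2 had no transcript of that type. In SNRPE, 1163 per kb were in processed_transcript forms against 734 per kb in coding ones. SF3B6 led the SF3 subunits with 3026 per kb, followed by SF3B2 with 2224, SF3B5 with 1724 and SF3B1 with 1610 per kb. SF3A3 had 1478 per kb in processed_transcript forms against 374 per kb in coding ones. The PRPF family was led by PRPF8, followed by PRPF19, a ubiquitin ligase, with 1065, PRPF6 with 757 and PRPF38B with 736 per kb. U2AF2 had 1783 per kb.

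**Figure D5:**
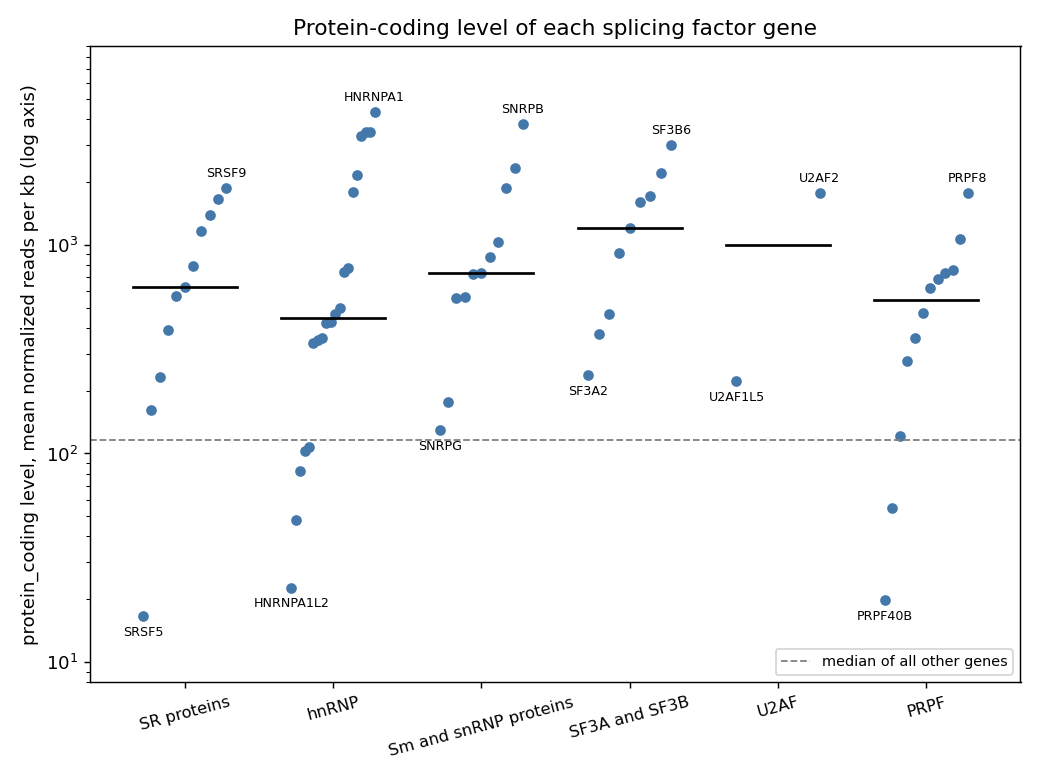
Protein_coding level of each of the 65 splicing factor genes in mean normalized reads per kb (log axis), by family; each point is a gene, the bar is the family median, and the highest and lowest gene are named. The dashed line is the median of the 12055 other genes, 116 per kb, and the family medians lie between 447 in hnRNP and 1201 in SF3A and SF3B.

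U2AF1, the small U2AF subunit, had no protein_coding transcript listed, and its near-identical copy U2AF1L5 had 3 with 223 per kb. Reads of these copies cannot be told apart, so the U2AF1L5 value is uncertain. The other symbols without a coding transcript were PRPF39, U2AF1L4, the read-through HNRNPUL2-BSCL2 and 11 pseudogene symbols of hnRNP genes, 8 of which were copies of HNRNPA1. The pseudogenes had mean normalized read counts of 7.87 to 53.2, against 7091 over the coding transcripts of HNRNPA1, and they too share sequence with their parent.

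Other genes of the pathway were described in the same way. Over all genes with a protein_coding transcript, a retained_intron transcript was listed for 31.7% and a decay transcript for 18.8%. Among 27 other splicing regulators, a retained_intron transcript was listed for 74.1% and a nonsense_mediated_decay transcript for 40.7%. EWSR1 had a retained_intron share of 95.2%, RBM5 72.3% and TRA2B, an SR-like protein, 57.7%. QKI had the highest decay share with 52.5%, followed by RBM25 with 21.4% and SRRM2 with 18.1%. Without division by length, EWSR1 had 643 retained_intron reads against 23.7 coding reads, RBM5 953 against 749 and TRA2B 705 against 598. Decay reads were 1351 against 181 coding reads in QKI, 208 against 505 in RBM25 and 153 against 9674 in SRRM2. The canonical transcript of EWSR1 was not listed. Among 30 other spliceosome subunits, a retained_intron transcript was listed for 15 and a decay transcript for 17. The highest retained_intron shares were 95.5% in DDX39B, 58.7% in DHX38 and 45.8% in DDX23. The highest decay shares were 84.7% in LSM6, 65.4% in AQR and 62.9% in SNRNP27. In reads, DDX39B had 1507 of retained_intron against 18.4 of coding, DHX38 420 against 1755 and DDX23 279 against 1254. LSM6 had 289 decay reads against 137 coding reads, AQR 1241 against 425 and SNRNP27 371 against 398.

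Of 6 SR protein kinases, which phosphorylate SR proteins, 3 had a retained_intron transcript, or 50%, against 31.7% of all genes with a protein_coding transcript. CLK1, a kinase known for its retained introns, had a share of 84.2% with 109 per kb against a coding level of 9.09 per kb, CLK4 had 37.9% and SRPK1 3.58%. CLK4 and CLK1 had decay shares of 9.09% and 8.71%. In reads, CLK1 had 348 of retained_intron against 17.8 of coding, CLK4 77.5 against 73.6 and SRPK1 92.3 against 4145. Decay reads were 14.4 in CLK4 and 18.7 in CLK1. Of 15 NMD factors, 11 had a retained_intron transcript, or 73.3%. The highest shares were 59.5% in SMG9, 54.2% in RNPS1 and 38.1% in EIF4A3. Decay transcripts were listed for 2, or 13.3%, which is below the 18.8% of all genes. These were SMG9 with a share of 17.8% and CASC3 with 14.5%. In reads, SMG9 had 161 of retained_intron against 343 of coding, RNPS1 158 against 115 and EIF4A3 838 against 1606. Decay reads were 91.1 in SMG9 and 50.1 in CASC3, against 343 and 1216 coding reads. The canonical transcripts of RNPS1 and EIF4A3 were not listed.

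Outside splicing, the 82 cytosolic ribosomal protein genes had a median coding level of 1656 per kb. They had a retained_intron transcript listed for 76.8% and a decay transcript for 26.8%. The 52 genes with EIF symbols, translation initiation factors and relatives, had 61.5% and 13.5%. Listing of retained_intron transcripts was thus not higher in splicing factors than in these groups. SR proteins were above both in decay transcripts, with no minimum count applied. These groups were not tested against each other.

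Markers fixed for the cell line were present. VIM, AXL, CAV1 and EGFR were at the 95.1 to 99 percentile of coding level, CD44 at the 82.0 and SPARC at the 41.5 percentile. KRT5, KRT14, PTPRC and ALB, markers of other cell types, had no value in the table.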

How the data were processed

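RNA-seq libraries of MDA-MB-231 cells, 2 with DMSO and 2 with 10 µM KH-3 for 24 h, were grouped by their labels. STAR was used by the authors for mapping, with the transcripts of GENCODE release 24. Reads of each transcript were then estimated by eXpress, and the authors compared groups with DESeq2. Tool versions are not given in the sources used here, and hg38 is the build in the submitters' processing notes. The deposited mean count is a signal that the authors normalized and then averaged over libraries. Which libraries enter it is not stated, although the methods also name a 5 µM group. Transcripts below a mean count of 7.34 are not listed. The log2 fold change, p-value and q-value columns of the authors' own comparison were not used. The table has no column of values per library, so no test, replicate error or depth could be given, and the effect of KH-3 is not analysed here.

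Counts were divided by the transcript length in the table. Genes needed at least 1 protein_coding transcript to enter the shares. Named genes were each SRSF gene, the 4 genes with the highest coding level in each other family, the 10 genes with the highest share of each type among genes with a coding mean count of at least 100, all genes whose retained_intron or nonsense_mediated_decay level reached the coding level, and 3 genes per pathway list and type. Other genes were named after their values were seen, and 1 gene that meets the rule is not reported here. The members and lists were chosen with earlier results of these data known. Alternatives covered division by length, the summing of transcripts, minimum counts of 20 and 50, the denominator and the transcript types. Leaving out genes without a listed canonical transcript, the types of GENCODE release 44 for the counts of genes above their coding level, and the 25% of genes with the highest coding level were added after the data were seen.

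Structures and sequences come from GENCODE release 44 on hg38, which holds 359 of the 368 transcripts, 283 of them with the same length and 311 with the same type. The computation of shares was tested on simulated data with known shares. Python 3.11.15, numpy 2.4.6, pandas 2.3.3 and matplotlib 3.10.9 were used.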

Additional observations from a re-analysis of the deposited data

How the results depend on the processing

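No paired analysis was possible because the table has no values per library, and leaving out each replicate was not run for the same reason. With no replicate spread, a value was taken as moved when it changed by over 1.5 times. The count of splicing factor genes with a listed nonsense_mediated_decay transcript fell from 26 to 15 with transcripts of at least 50 mean normalized reads. The median retained_intron share, 2.55%, was 1.39% without division by length, 0 with a minimum of 20 or of 50 reads, and 20.2% over the 37 genes with such a transcript. The median nonsense_mediated_decay share, 0, was 4.52% over the 26 genes with such a transcript. The count of genes whose nonsense_mediated_decay level reached the coding level fell from 3 to 1, HNRNPH1, without division by length. The median nonsense_mediated_decay share of SRSF genes, 4.72%, was 2.96% without division by length and 7.39% with the highest transcript of each type. The 30 other values of these results stayed within 1.5 times. They include the settings where the median nonsense_mediated_decay share stayed at 0. With such a transcript in only 26 of 65 genes that median could hardly move, so it says nothing on stability. The 8 genes whose retained_intron level reached the coding level numbered 6 or 7 under the alternatives, but only PRPF31 was among them in all 7 settings. HNRNPH1 and SRSF5 dropped out where genes without a listed canonical transcript were left out. Depth limits all minor transcripts, since those under the floor of the table are counted as 0.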
